A study of Mus musculus with 20 samples.

Results

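The response of the mouse ventricle to a narrowed aorta was read from 10 arrays of control (CTL) hearts, of 20 arrays in the series. The members were chosen by their sample titles: 6 TAC CTL hearts and 4 sham CTL hearts. TAC is transverse aortic constriction, in which a suture is tied around the aortic arch and a needle that is then withdrawn, so that the left ventricle ejects against a fixed resistance. All 10 mice were male and carried floxed alleles of the de novo DNA methyltransferases Dnmt3a and Dnmt3b without Cre (Dnmt3a flox/flox, Dnmt3b flox/flox). The DKO hearts, used here as a second set of mice, carried the same alleles and a Cre driven by the Myl7 (atrial myosin light chain) promoter, which removes the catalytic exons in cardiac muscle cells. Surgery took place at 10 to 12 weeks of age and tissue was taken 4 weeks later, at 14 to 16 weeks. Total RNA of ventricular tissue was hybridised to Illumina expression arrays, with 1 array per mouse.

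A ventricle that pumps against a raised pressure thickens, because its muscle cells enlarge and assemble more sarcomeres. The growth is accompanied by a return of genes of the fetal heart, among them natriuretic peptides and slow or skeletal isoforms of contractile proteins, by deposition of collagen and other matrix between the muscle cells, and by a lower use of fatty acids as fuel. Over weeks these changes can pass into heart failure. The lists of genes below follow these functions.

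The table held 45281 probes as linear intensities. The 8 sham arrays and the 12 TAC arrays (both genotypes together) had been normalized as 2 separate sets: within each set at least 97.5% of the sorted values were equal within 0.2%, and between the sets at most 0.413%. The median intensity was 47.52 on the sham arrays and 58.61 on the TAC arrays. The values were therefore put on the log2 scale and quantile normalized over all 20 arrays, but surgery and set cannot be told apart. The first principal component held 54.4% of the variance and separated sham from TAC arrays. Sham CTL replicate 4 stood apart on the second component, at -42.2 against 1.5 to 8.2 in the other 3 sham CTL arrays. TAC CTL replicates 1 and 2 lay at 36.9 and 27.2 on the first component, and the other 4 TAC CTL arrays between 7.9 and 19.7. No label names a batch that matches this difference. Sham CTL replicate 2 carried fast skeletal muscle transcripts: Atp2a1, the calcium pump of fast skeletal muscle, was at 1890 there and at 69.9 to 77.4 in the other sham CTL hearts, and Pvalb, the calcium buffer parvalbumin, at 1300 against 51.5 to 110. Where leaving out a single CTL heart ended the call of a named gene, the log2 change without that heart is given beside it.

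The tissue carried the markers of ventricular muscle. All 19 measured cardiomyocyte markers lay above the background level in at least 1 group, where background means the median intensity of all probes and arrays, 53.9. Myl2, the ventricular regulatory myosin light chain, was between 24000 and 28300 in the sham CTL hearts and between 26300 and 30300 in the TAC CTL hearts. Of 13 atrial markers, 3 (Myl7, Sln and Bmp10) were near background in both groups. Others were above it, such as Stard10 at 204 to 249 and Myl4 at 134 to 166 in the sham CTL hearts. In bulk tissue fewer cells of a type and less RNA per cell cannot be told apart.

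Of 45281 probes, 798 were called higher after TAC (1.76%) and 1541 lower (3.4%). A call asked for more than a 1.5-fold difference and, in limma, for a p below 0.05 after adjustment over all probes by Benjamini-Hochberg. In 688 of the former and 1434 of the latter the 4 sham and 6 TAC hearts did not overlap. Called probes were selected for a difference, which makes such separation likely, and the share over all probes was not counted. The genes named for the largest rises and falls were taken only from probes without overlap, so for them separation is no finding. With the brightest probe standing for each of 19057 genes, 523 genes were called higher (2.74%) and 800 lower (4.2%), and the median log2 change of all genes was 0.03. These shares are the background for the lists below, but they are low for that purpose. Most members of each list of functions had a brightest probe above the median probe, which 12297 of all genes had. When only such probes were tested, 525 of these 12297 genes were called higher and 803 lower. The split depended on the scaling. When each array was only centred on its median, 107 genes were called higher and 2224 lower, so that 4.59% of calls were rises in place of 39.5%. With the deposited values 473 were called higher and 1048 lower. These included 307 of the 523 rises (58.7%) and 770 of the 800 falls (96.2%), and under median centring 107 (20.5%) and 800 were kept. No gene called here was called in the opposite direction under either scaling. An opposite call would need a move from over 1.5-fold in 1 direction to over 1.5-fold in the other, so it was unlikely in advance. For each list the counts under median centring are given beside the main ones where they differ by over 1.5 times.

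**Figure D1:**
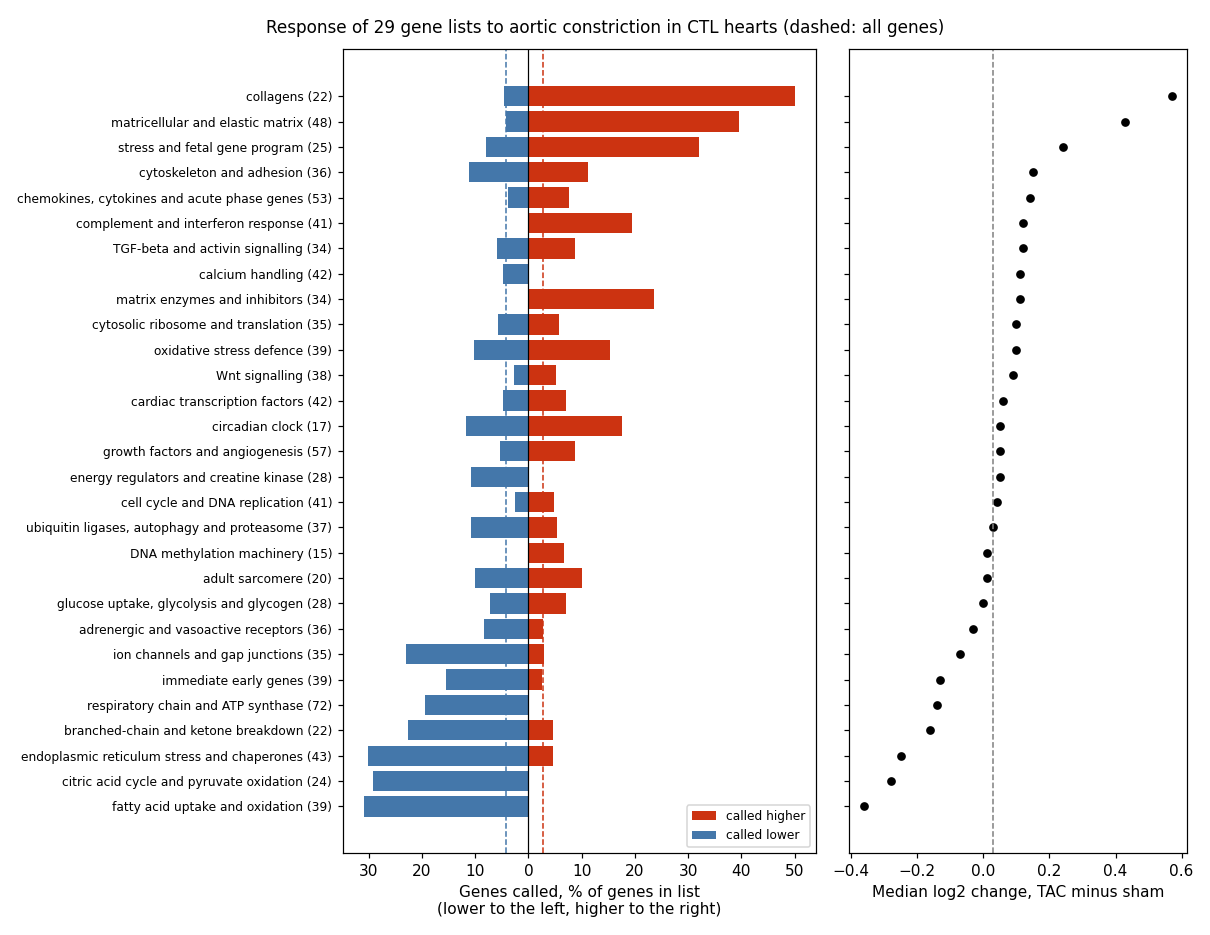
Bars give the percentage of each list's measured genes called higher (to the right) or lower (to the left) after TAC in CTL hearts, with the number of genes in parentheses, and points give the list's median log2 change; dashed lines mark all 19057 genes. Among these 29 lists of functions collagens have the highest share called higher (50% of 22 genes) and fatty acid uptake and oxidation the highest share called lower (30.8% of 39).

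Genes of the stress and fetal program rose more often than they fell. Of its 25 measured genes, 8 were called higher and 2 lower (5 and 3 under median centring), with a median log2 change of 0.24. The natriuretic peptides are hormones that loaded heart muscle releases and that promote salt excretion. Nppa, the atrial natriuretic peptide, had intensities of 3660, 7890, 7570 and 2610 in the 4 sham hearts and from 8610 to 31800, with a median of 27800, in the TAC hearts. The groups did not overlap, although TAC replicate 6 at 8610 lay just above the highest sham heart, and the log2 change was 2.24 ± 0.32 (SE; adjusted p = 1.26e-05). Nppb, the B-type natriuretic peptide, was at 5560, 7540, 7160 and 5800 in the sham hearts and ran from 7470 to 15100, with a median of 12500, in the TAC hearts. Its log2 change was 0.80 ± 0.20 (adjusted p = 0.00505), and TAC replicate 6, at 7470, lay below the highest sham heart. Under median centring the Nppb change was 0.35 and was not called.

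Acta1, the skeletal alpha-actin that the fetal heart also uses, was at 2730, 5840, 3740 and 4810 in the sham hearts and ran from 16200 to 22100, with a median of 19600, in the TAC hearts. The groups did not overlap, and the highest sham heart was replicate 2, the heart with fast skeletal muscle transcripts. The log2 change was 2.26 ± 0.29 (adjusted p = 3.16e-06). Without that heart it was 2.43. Myh7, the slow myosin heavy chain of the fetal ventricle, was at 105, 93.7, 105 and 77.9 in the sham hearts and ran from 98.2 to 406, with a median of 198, in the TAC hearts. All 3 Myh7 probes were called higher, with log2 changes of 1.04, 0.98 and 0.76. However, TAC replicates 2 and 6 lay within or next to the sham range. The brightest probe lost its call when any of 7 single hearts was left out (0.83 to 1.09) or under median centring (0.70). The dimmer Myh7 probes were near background in the sham hearts, with medians of 50.6 and 51.9. Myh6, the fast adult heavy chain, gave a log2 change of -0.31 ± 0.16 at its brightest probe (adjusted p = 0.185). A dimmer Myh6 probe gave -1.35 and was called lower. The brightest probe read 24500 to 25800 in the sham hearts, high on a scale whose highest deposited value was 32485.8. Whether that limited its change was not tested.

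Ankrd1, a stretch-responsive protein of the sarcomere and nucleus, was at 8250, 9360, 9500 and 8820 in the sham hearts and ran from 10800 to 15800, with a median of 14100, in the TAC hearts, a log2 change of 0.61 ± 0.13 (adjusted p = 0.00111). Its other probe gave 0.71. The brightest probe lost its call with the deposited values (0.50), under median centring (0.20), and without sham replicate 1 or TAC replicate 3 (0.57 each). Fhl1, a LIM protein of the sarcomere's stretch sensor, rose by 1.18 ± 0.20 at its brightest probe and by 1.26 at another. Uchl1, a ubiquitin hydrolase, rose by 0.84 on the log2 scale from a sham mean of 72.9. The 2 genes called lower were Hopx, a homeodomain-only cofactor, at -0.81 and Mypn, the sarcomere protein myopalladin, at -0.65, which lost the call without sham replicate 4 (-0.54). Rcan1, a target and inhibitor of calcineurin, was not called, with a log2 change of -0.08 ± 0.22 (adjusted p = 0.837).

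**Figure D2:**
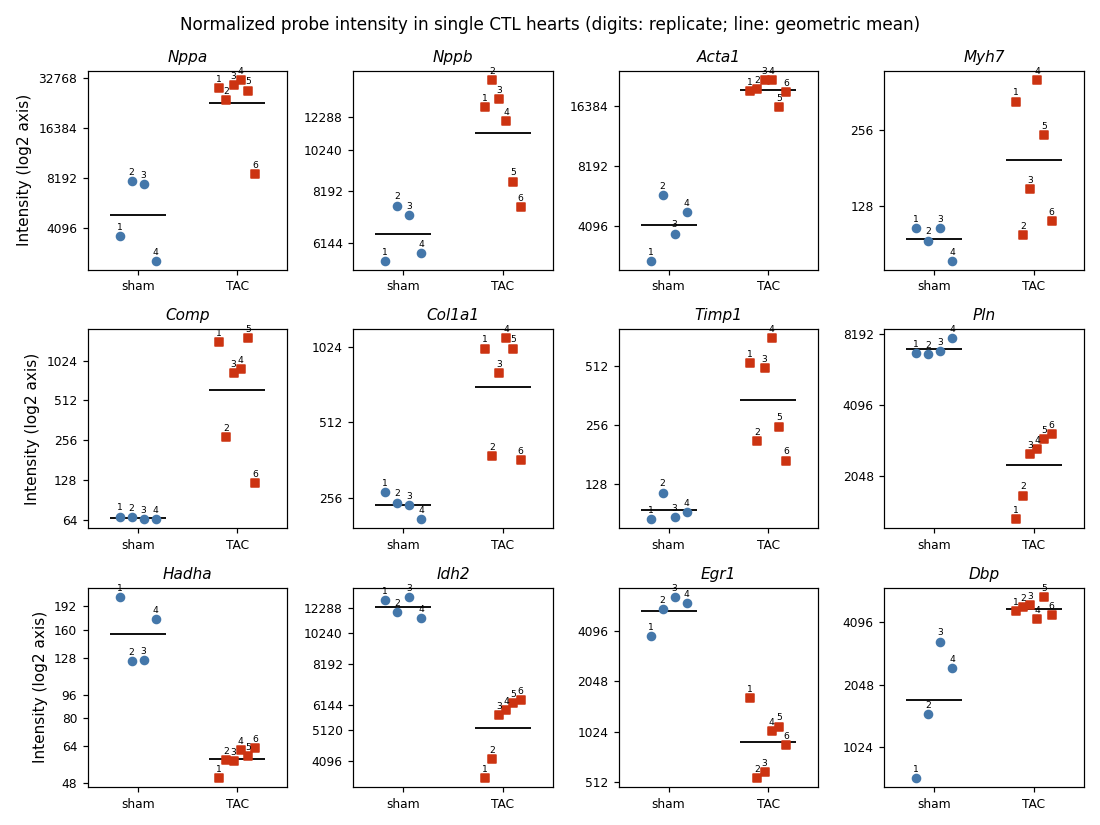
Each point is the normalized intensity of 1 probe in 1 CTL heart on a log2 axis, blue circles for sham (n = 4) and red squares for TAC (n = 6), with the replicate number beside it and the geometric mean as a line. Nppa, Acta1, Comp, Col1a1, Timp1 and Dbp lie higher in all 6 TAC hearts than in any sham heart, Pln, Hadha, Idh2 and Egr1 lower, while Nppb and Myh7 overlap between the groups.

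The promoters of Acta1, Nppa, Nppb and Ankrd1 are shown because these genes are classic readouts of load on heart muscle. They are the 200 bases before the start of the transcript in RefSeq (GRCm38.p6), 5′ to 3′ on the strand of the gene. Capitals mark the motifs searched on both strands: the MCAT element CATTCC that TEAD factors bind, the letters TATAAA of a core promoter's TATA box, and the CArG box of serum response factor. Acta1 lies at chr8:123894776-123894975 on the minus strand, Nppa at chr4:148000522-148000721 and Nppb at chr4:147985700-147985899 on the plus strand, and Ankrd1 at chr19:36119845-36120044 on the minus strand.
Acta1: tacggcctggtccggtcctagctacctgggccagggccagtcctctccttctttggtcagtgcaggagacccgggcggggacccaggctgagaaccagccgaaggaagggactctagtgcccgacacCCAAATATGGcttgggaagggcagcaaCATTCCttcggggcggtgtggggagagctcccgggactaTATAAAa
Nppa: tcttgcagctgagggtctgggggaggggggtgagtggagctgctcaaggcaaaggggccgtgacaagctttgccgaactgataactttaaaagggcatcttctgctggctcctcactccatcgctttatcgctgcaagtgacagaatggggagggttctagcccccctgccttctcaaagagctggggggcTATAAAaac
Nppb: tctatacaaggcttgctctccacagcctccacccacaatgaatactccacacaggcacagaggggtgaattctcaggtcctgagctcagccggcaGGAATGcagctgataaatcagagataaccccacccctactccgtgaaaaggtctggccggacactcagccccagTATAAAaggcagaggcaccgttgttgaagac
Ankrd1: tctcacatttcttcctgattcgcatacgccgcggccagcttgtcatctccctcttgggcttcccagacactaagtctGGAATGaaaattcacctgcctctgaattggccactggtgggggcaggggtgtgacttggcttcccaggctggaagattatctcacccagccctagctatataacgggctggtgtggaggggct
The Acta1 stretch holds a CArG box, an MCAT element and a TATA box, and the Nppb stretch an MCAT element on the other strand and a TATA box. Nppa holds a TATA box and Ankrd1 an MCAT element on the other strand. The letters TATAAA lay at -7 to -2 from the start in Acta1, -9 to -4 in Nppa and -31 to -26 in Nppb. Whether they act as TATA boxes was not tested. Over the window from 250 bases before to 50 after the start, 402 of the 523 genes called higher matched a RefSeq promoter by symbol, with 506 windows. The MCAT element stood in 14.6% of these, in 12.9% of 832 windows of genes called lower and in 14.7% of all 32851 windows. The CArG box stood in 1.38%, 1.68% and 1.63%, and the TATA box in 9.88%, 8.77% and 13.6%. TNAAGGTCA, the element of estrogen-related receptors, stood in 0.791%, 1.44% and 1.28%. Over the 18719 windows of all genes on the array the shares were 13.2% for the MCAT element, 1.43% for the CArG box, 11.8% for the TATA box and 0.967% for the estrogen-related receptor element. The last of these rested on 4 windows among genes called higher and 12 among genes called lower. A match is only a run of letters, and the shares were not tested.

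Among genes of the adult sarcomere, 2 of 20 were called higher and 2 lower (0 and 6 under median centring), with a median log2 change of 0.01. Mybpc3, cardiac myosin binding protein C, rose by 0.77 ± 0.07 (adjusted p = 4.46e-08), from 5650, 6250, 6840 and 5160 in the sham hearts to values from 9400 to 11000, with a median of 10200, in the TAC hearts. Nrap, a scaffold of growing myofibrils, rose by 0.65. Tnni3, the cardiac troponin I, fell by 1.37 on the log2 scale (SE 0.23, adjusted p = 0.000108), and its values of 2580, 2490, 2360 and 3920 in the sham hearts did not overlap with those of the TAC hearts, which ran from 612 to 1600, with a median of 1170. Lmod2, which sets thin filament length, was called lower (-0.60), but not without sham replicate 2 or 3 or TAC replicate 1 or 4 (-0.58 to -0.57). Both rises were lost under median centring.

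The cytoskeleton list split evenly, with 4 of 36 genes called higher and 4 lower (0 and 7 under median centring). Flnc, the muscle filamin, rose by 1.04 ± 0.13, Pdlim3, a Z-disc LIM protein, by 0.88, Zyx, the focal adhesion protein zyxin, by 0.83 and Lmna, lamin A/C, by 0.74. The genes that fell were the tubulins Tuba8 (log2 change -1.44 ± 0.16), Tubb6 (-0.92) and Tuba1a (-0.64) and Vcl, vinculin (-0.77). Tuba8 fell at both of its bright probes. Tuba1a lost its call without sham replicate 2 (-0.53) or TAC replicate 2 (-0.56). The list's median minus that of all genes was 0.13, and -0.08 under median centring or with the deposited values.

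Collagens had the highest share of rises among the lists of functions. Of 22 collagen genes, 11 were called higher and 1 lower, with a median log2 change of 0.57 (3 and 1 under median centring and 7 and 1 with the deposited values, where the median lay 0.26 above that of all genes in place of 0.54). Col1a1, the main chain of the fibrillar collagen of scar and interstitium, was at 269, 245, 239 and 210 in the sham hearts and ran from 362 to 1110, with a median of 908, in the TAC hearts, a log2 change of 1.56 ± 0.26 (adjusted p = 0.000101). No TAC heart overlapped with a sham heart, but TAC replicates 2 and 6 were at 377 and 362 while the other 4 were at 808 to 1110. Col1a2, the other chain of that collagen, was not called, with a log2 change of -0.02 ± 0.15 (adjusted p = 0.951). Col8a2, a short-chain collagen, rose by 1.48, Col5a1, which nucleates collagen fibrils, by 1.09 and Col16a1, a fibril-associated collagen, by 0.94. Col3a1, the partner of Col1a1 in fibrils, was called lower at its only bright probe, with 399, 368, 253 and 322 in the sham hearts and from 129 to 290, with a median of 183, in the TAC hearts. The groups overlapped there, and a second, dim probe gave -0.19.

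Of 48 genes for matricellular proteins, proteoglycans and elastic fibres 19 were called higher and 2 lower (9 and 3 under median centring), with a median of 0.43. Comp, the cartilage oligomeric matrix protein that aids collagen assembly, gave the largest rise on the array. Its intensities were 67.9, 67.5, 65 and 64.8 in the sham hearts and ran from 122 to 1510, with a median of 854, in the TAC hearts, a log2 change of 3.20 ± 0.53 (adjusted p = 8.44e-05). All TAC hearts lay above all sham hearts, which was a condition for the choice of the largest rises. TAC replicate 6 at 122 and replicate 2 at 270 were the lowest. Ccn5, a secreted inhibitor of fibroblast activation, was next, at 76.2, 80.9, 66.8 and 65 in the sham hearts and from 303 to 568, with a median of 494, in the TAC hearts (log2 change 2.68 ± 0.34). Mfap4, a microfibril protein, rose by 2.04 and Sfrp1, a secreted Wnt antagonist, by 1.77 at its brightest probe. A second Sfrp1 probe did not rise, with a median of 120 in the sham and 95.5 in the TAC hearts. Ccn2, connective tissue growth factor, rose by 1.05 ± 0.21 at 1 probe (adjusted p = 0.000842) and was not called at another, which gave 0.64. Ccn1, the related immediate early matricellular protein, fell by 1.72 on the log2 scale, with 3 of 3 probes called lower, and Lamb1, a laminin chain, by 0.86. Postn, periostin, a marker of activated fibroblasts, stayed near background in both groups at all 3 probes and was not called (0.22 at the brightest).

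Among enzymes and inhibitors of the matrix 8 of 34 genes were called higher and none lower (4 and 5 under median centring). Their median lay 0.08 above that of all genes, and -0.03 from it under median centring or with the deposited values. Timp1, the inhibitor of matrix metalloproteinases, was at 84.7, 116, 86.8 and 92.3 in the sham hearts and ran from 169 to 712, with a median of 377, in the TAC hearts. Its log2 change was 1.88 ± 0.32 (adjusted p = 0.000118) and the second probe gave 1.86. Lox, lysyl oxidase, which cross-links collagen and elastin, rose by 1.60 ± 0.25, from 79.9, 70.8, 75.3 and 68.5 in the sham hearts to a range from 129 to 347, with a median of 240, in the TAC hearts. Adamtsl2, a matrix protein that binds fibrillin, rose by 1.22 and Mmp2, gelatinase A, by 1.19. In TGF-beta and activin signalling 3 of 34 genes were called higher and 2 lower (0 and 7 under median centring). Tgfb3, a TGF-beta ligand, rose by 0.91 ± 0.17, Fstl1, a follistatin-like secreted protein, by 0.76 and Bmp4 by 0.62, while the receptors Acvr2a and Bmpr1a fell by 0.73 and 0.70. Bmp4 lost its call without TAC replicate 1 or 5 (0.57 each). A second Bmpr1a probe gave 0.31 and was not called. Acvr2a was near background in the TAC hearts, with a median of 51.1. Tgfb2, another ligand, was not called (-0.20 ± 0.12, adjusted p = 0.271).

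The size of the response differed between TAC hearts. The mean log2 level of the collagen list, set to 0 for the sham mean, was 0.09 in TAC replicate 6 and 0.22 in replicate 2, against 0.57 to 0.77 in the other 4, and -0.11 to 0.08 in the sham hearts. The matricellular list gave 0.19 and 0.29 against 0.54 to 0.74. The stress and fetal list gave 0.17 and 0.30 for the same hearts and 0.34 to 0.74 for the others. For fatty acid genes, replicate 6 again lay nearest to the sham hearts at -0.20, whereas replicate 2, at -0.43, lay among the others. Replicate 1 was the lowest at -0.66. Without TAC replicate 6, 597 genes were called higher and 830 lower. With TAC replicates 3 to 6 alone, an alternative chosen after seeing the data, 433 were called higher and 692 lower, and these included 418 and 681 of the genes above.

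**Figure D3:**
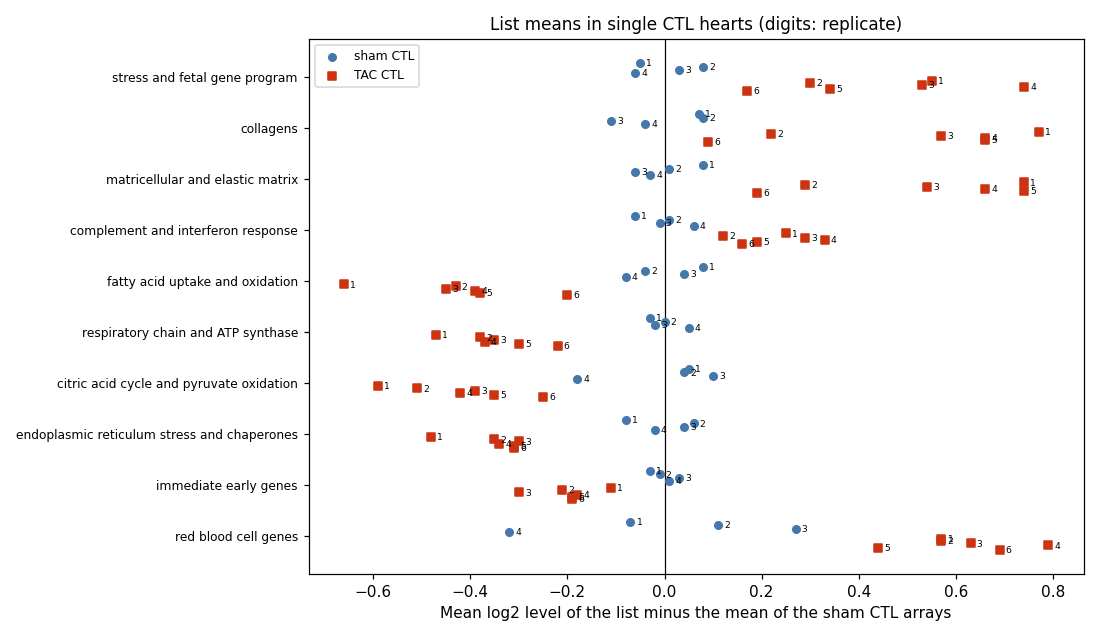
Each point is the mean log2 level of 1 list in 1 CTL heart minus the mean of the sham CTL hearts, blue circles for sham and red squares for TAC, with the replicate number beside it. TAC replicate 6 lies nearest to the sham hearts in the stress, collagen, matricellular and fuel lists, and red blood cell genes are higher in all 6 TAC hearts (0.44 to 0.79) than in any sham heart (-0.32 to 0.27).

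Genes of fatty acid uptake and oxidation, the main fuel path of the adult heart, were called lower in 12 of 39 cases and higher in none (22 and 0 under median centring). The median was -0.36. Hadha, the alpha chain of the mitochondrial trifunctional protein that runs the last steps of each oxidation round, was at 207, 125, 126 and 174 in the sham hearts and ran from 49.9 to 63, with a median of 58.3, in the TAC hearts. The log2 change was -1.42 ± 0.15 (adjusted p = 3.35e-07). The TAC values of Hadha lay close to the background level of 53.9. Acot1, an acyl-CoA thioesterase, was at 1100, 681, 693 and 953 and from 130 to 503, with a median of 284 (-1.58 ± 0.34), and its near-identical neighbour genes may share its probe. Pdk4, the kinase that shuts glucose carbon out of the mitochondrion, went from 11400, 4470, 5330 and 3280 in the sham hearts to a range from 1330 to 2710, with a median of 2270, in the TAC hearts (-1.43 ± 0.31, adjusted p = 0.00132). Mlycd, malonyl-CoA decarboxylase, fell by 1.21 and Cd36, the fatty acid transporter, by 0.81, the latter at a dim probe. Cpt1b, the carnitine transferase that admits fatty acids to the mitochondrion, missed the fold threshold at its brightest probe (-0.45 ± 0.11, adjusted p = 0.0042) and gave 0.07 at a second.

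In the respiratory chain and ATP synthase list 14 of 72 genes were called lower and none higher (30 and 0 under median centring), with a median of -0.14. In the citric acid cycle list 7 of 24 were called lower and none higher (14 and 0), with a median of -0.28. Atp5a1, the alpha subunit of ATP synthase, had intensities of 6530, 6210, 5990 and 5530 in the sham hearts and from 991 to 1990, with a median of 1630, in the TAC hearts (log2 change -2.03 ± 0.18, adjusted p = 1.97e-08). The complex I subunits Ndufb2, Ndufb9 and Ndufb4 gave log2 changes of -2.20, -2.20 and -2.01. Outside the list, ND4L, a complex I subunit of the mitochondrial genome, gave the largest fall of all genes, from 6080, 5060, 5470 and 6530 in the sham hearts to a range from 268 to 774, with a median of 561, in the TAC hearts (-3.47 ± 0.22). Idh2, the mitochondrial isocitrate dehydrogenase, was at 13000, 11900, 13300 and 11400 and from 3640 to 6330, with a median of 5810 (-1.25 ± 0.15, adjusted p = 1.83e-06). Dld, the dehydrogenase shared by the pyruvate and oxoglutarate complexes, fell by 2.07 on the log2 scale, Mdh1, cytosolic malate dehydrogenase, by 1.70 and Sucla2, a succinyl-CoA ligase subunit, by 1.05. Mdh1 fell at all 3 of its bright probes. Sucla2 was near background in the TAC hearts, with a median of 53.

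Many of these falls rested on a single probe, and probes of a gene often differed. Ndufa5, a complex I subunit, fell by 2.32 at 1 probe and gave 0.06 at its brightest. Fh1, fumarase, fell by 2.41 at 1 probe and gave -0.48 at its brightest. Over the array, 1742 genes had several probes brighter than 2 times the background level. In 343 of them at least 1 such probe was called lower, and in 36 of the 343 (10.5%) all were. The other probes of these genes had a median log2 change of -0.10, and 58.6% of them were below 0. For rises the figures were 200 genes, 40 with all probes called (20%), a median of 0.45 and 82.5% above 0. In 13 genes probes were called in both directions. When all probes of a gene were averaged, 267 genes were called higher and 515 lower. The medians of the lists of fatty acid, respiratory chain and citric acid cycle genes were then -0.37, -0.19 and -0.43 relative to all genes, against -0.39, -0.17 and -0.31 with the brightest probe.

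**Figure D4:**
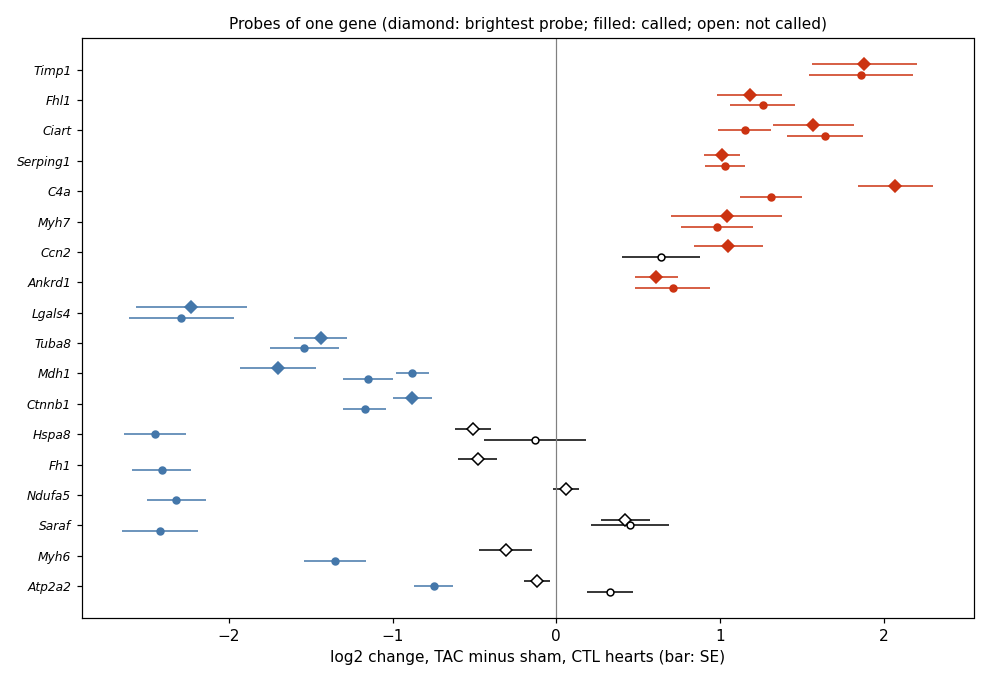
Each symbol is the log2 change (TAC minus sham, CTL hearts) of 1 probe with its SE, for probes whose mean exceeded 2 times the background level in either group; diamonds are the brightest probe, filled symbols are called (red higher, blue lower) and open ones are not. The probes of Timp1, Fhl1, Ciart, Serping1, Lgals4, Tuba8, Mdh1 and Ctnnb1 are called together, while for Hspa8, Fh1, Ndufa5, Saraf, Myh6 and Atp2a2 a called fall stands beside a brighter probe that is not called.

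In glucose uptake, glycolysis and glycogen 2 of 28 genes were called higher and 2 lower (0 and 8 under median centring), with a median of 0.00. Pfkp, the platelet isoform of phosphofructokinase, rose by 1.02 and Ugp2, which makes UDP-glucose for glycogen, by 0.59, and Ugp2 lost its call without sham replicate 1 (0.57) or 4 (0.45) or TAC replicate 2 (0.44) or 3 (0.58). Pfkfb2, the cardiac activator of phosphofructokinase, fell by 0.98 and Pgk1, phosphoglycerate kinase, by 0.67. The glucose transporters Slc2a1 and Slc2a4 were not called (0.22 ± 0.10 and -0.11 ± 0.15). Of 22 genes that break down branched-chain amino acids and ketones 5 were called lower and 1 higher (12 and 0 under median centring). Mccc1, a subunit of methylcrotonyl-CoA carboxylase, went from 538, 557, 535 and 502 in the sham hearts to a range from 96 to 162, with a median of 143, in the TAC hearts (-1.97 ± 0.13, adjusted p = 5.18e-10). Aldh6a1, a valine pathway dehydrogenase, fell by 1.77, Acadsb, which oxidises isoleucine products, by 1.61, and Bckdhb, a subunit of the branched-chain ketoacid dehydrogenase, gave -1.39. Bdh1, the first enzyme of ketone body oxidation, rose by 1.09 ± 0.23 (adjusted p = 0.00119).

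The regulators of energy metabolism were mostly not called. Of 28 genes, 3 were called lower and none higher (9 and 0 under median centring). Klf15, a transcription factor of fuel use, fell by 0.78 and Angptl4, an inhibitor of lipoprotein lipase, by 1.26. Klf15 was near background in the TAC hearts (43.8 to 67.1). Sirt3, the mitochondrial deacetylase, was called lower at -0.59, but not without sham replicate 2 or 4 or TAC replicate 1, 2 or 4 (-0.58 to -0.51). Ppargc1a, a coactivator of mitochondrial genes, gave -0.19 ± 0.17 (adjusted p = 0.476), and the estrogen-related receptors Esrra and Esrrg gave -0.15 ± 0.06 and 0.16 ± 0.12. Ppara, the fatty acid receptor, was not called (0.10 ± 0.09, adjusted p = 0.483). The creatine kinases Ckm (-0.07 ± 0.11) and Ckmt2 (0.20 ± 0.10) were not called. Nmrk2, the muscle nicotinamide riboside kinase, rose at 1 probe, from 135, 131, 118 and 111 to values from 203 to 748, with a median of 367, and was called lower at another (-1.26).

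Calcium handling genes were called in 2 of 42 cases, both lower (6 under median centring). The share called lower was 4.76%, close to the 4.2% of all genes. The median of the list lay 0.08 above that of all genes, and -0.17 from it under median centring or with the deposited values. Pln, phospholamban, which restrains the calcium pump of the sarcoplasmic reticulum, was at 6820, 6760, 6980 and 7890 in the sham hearts and ran from 1340 to 3090, with a median of 2590, in the TAC hearts (-1.64 ± 0.19, adjusted p = 9.81e-07). Ryr2, the calcium release channel, was at 7500, 5820, 5360 and 7310 and from 2490 to 4910, with a median of 3830 (-0.85 ± 0.15). Its other probes were near background or dim and were not called. Atp2a2, the pump itself, gave -0.12 ± 0.08 at its brightest probe, -0.75 at a second, called lower, and 0.33 at another. Its brightest probe ran from 25800 to 31800, near the highest deposited value of 32485.8. Whether that limited its change was not tested.

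Of 35 ion channel and gap junction genes 8 were called lower and 1 higher (10 and 0 under median centring). Kcna5, a voltage-gated potassium channel of repolarisation, was at 280, 256, 217 and 191 in the sham hearts and ran from 82.7 to 137, with a median of 93.8, in the TAC hearts (-1.23 ± 0.17, adjusted p = 1.09e-05). Fxyd1, phospholemman, the regulator of the sodium pump, fell by 1.31 at its brightest probe and gave 0.07 at another, and Gjc1, the gap junction protein connexin 45, fell by 1.01. Kcnv2, a modifier of potassium channels, fell by 0.86. Kcnd2, a channel of the transient outward current, was called lower (-0.72 ± 0.23, adjusted p = 0.0265), but its groups overlapped and the call was lost without sham replicate 1 (-0.64) or 2 (-0.63) or TAC replicate 1 (-0.63) or 4 (-0.68). Kcnip2, the partner of that channel, and Gja1, connexin 43, were not called (-0.29 ± 0.14 and -0.30 ± 0.09). Atp1b1, the beta subunit of the sodium pump, was called higher at 0.59, but not without sham replicate 4 (0.45) or TAC replicate 1 (0.57) or 3 (0.58).

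Among receptors and hormones of vessel tone, 1 of 36 genes was called higher and 3 lower (0 and 11 under median centring). Ace, the angiotensin-converting enzyme, was at 216, 207, 176 and 237 in the sham hearts and ran from 336 to 504, with a median of 416, in the TAC hearts (0.97 ± 0.16, adjusted p = 0.000106). Agtrap, which removes the angiotensin receptor from the surface, fell by 0.80, Npr2, the receptor of C-type natriuretic peptide, by 0.68 and Gnas, the stimulatory G protein, by 0.68. Gnas lost its call without sham replicate 1 or TAC replicate 1 (-0.58 each).

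Of 39 immediate early genes 6 were called lower and 1 higher (12 and 1 under median centring). Egr1, a zinc finger factor induced within minutes of a stimulus, was at 3810, 5540, 6530 and 5990 in the sham hearts and ran from 545 to 1630, with a median of 942, in the TAC hearts (-2.59 ± 0.29, adjusted p = 4.68e-07). Fos, of the AP-1 complex, went from 334, 276, 567 and 508 to values from 67.4 to 125, with a median of 102 (-2.05 ± 0.23). Dusp1, a phosphatase that ends MAP kinase signals, fell by 1.35 and Zfp36, which degrades cytokine messages, by 0.87. Ier3, an early survival gene, rose by 1.30 ± 0.15.

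Growth factors and angiogenesis genes rose in 5 and fell in 3 of 57 cases (2 and 11 under median centring). Igf1, an insulin-like growth factor, rose by 0.99 ± 0.16 at its brightest probe and by 0.86 at its other probe, Igfbp6, a binding protein of such factors, by 0.95, Hbegf, an epidermal growth factor relative, by 0.91 and Vegfd, a lymphatic growth factor, by 0.84. Vegfa, the main angiogenic factor, was at 4390, 3990, 2200 and 2610 in the sham hearts and ran from 1150 to 1620, with a median of 1330, in the TAC hearts (-1.24 ± 0.17, adjusted p = 7.87e-06). A second Vegfa probe gave -0.49 and was not called. Egln3, an oxygen sensor, fell by 0.79 and Angpt2, an antagonist of vessel stability, by 0.62, the latter not called without sham replicate 2 (-0.57) or TAC replicate 3 (-0.58) or 4 (-0.57). In the Wnt list 2 of 38 genes were called higher and 1 lower (2 and 2 under median centring). The shares were 5.26% and 2.63%, against 2.74% and 4.2% of all genes. Sfrp1 and Dkk3, both secreted antagonists or their relatives, rose by 1.77 and 1.53 at their brightest probes. Ctnnb1, beta-catenin, fell at both of its bright probes (-0.88 ± 0.12 at the brightest).

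Of 53 chemokine, cytokine and acute phase genes 4 were called higher and 2 lower (2 and 7 under median centring). Serpina3n, a serine protease inhibitor of the acute phase, was at 147, 185, 126 and 169 in the sham hearts and ran from 297 to 1530, with a median of 842, in the TAC hearts (2.33 ± 0.34, adjusted p = 1.8e-05). Lcn2, lipocalin, rose by 1.38, Ccl21a, a lymphoid chemokine, by 1.01 and Tnfsf13b, a B cell factor, by 0.68. Ccl7, a monocyte chemokine, and Cxcr4, a chemokine receptor, fell by 0.64 and 0.74, and Ccl7 lost its call without sham replicate 2 (-0.53). Il6 was near the background level and was not called (0.08 ± 0.11), and Ccl2 missed the fold threshold (-0.34 ± 0.07, adjusted p = 0.00147). Complement and interferon genes rose in 8 of 41 cases and fell in none (2 and 4 under median centring). C4b, complement component 4, went from 77.1, 83.4, 81.9 and 115 to values from 159 to 438, with a median of 308 (1.68 ± 0.20, adjusted p = 9.98e-07), and its near-identical neighbour C4a, whose probes may share its transcripts, rose by 2.07 and 1.31. Serping1, the C1 inhibitor, rose at both probes (1.01 and 1.03) and Ifit3, an interferon target, by 0.97. Psmb9, an immunoproteasome subunit, was at 64 to 288 in the sham hearts. Its groups overlapped, and its call (0.90) was lost without sham replicate 1 (0.60) or 2 (0.67).

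Of 43 chaperones and genes of the endoplasmic reticulum 13 were called lower and 2 higher (23 and 0 under median centring), with a median of -0.25. Hsp90aa1, a cytosolic chaperone, was at 530, 586, 582 and 651 in the sham hearts and ran from 120 to 191, with a median of 159, in the TAC hearts (-1.90 ± 0.17, adjusted p = 2.38e-08). Hspa5, the main chaperone of the endoplasmic reticulum, fell by 1.60, Dnajb4, a co-chaperone, by 1.43 and Hspb1, a small heat shock protein, by 1.34. Hspa8, the constitutive chaperone, fell by 2.45 at 1 probe, while its brightest probe gave -0.51 and another -0.13, neither called. Ddit3, a factor of the stress response of this compartment, rose by 0.81 at its brightest probe and gave 0.00 at the other, and Hspa2, a testis and heart chaperone, rose by 0.74.

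The remaining functions were called in both directions. Autophagy and proteasome genes gave 2 higher and 4 lower of 37 (1 and 8 under median centring), with Map1lc3b, the autophagosome marker, falling by 1.85 from 1010, 1070, 897 and 1500 to values from 229 to 358, with a median of 315, and the lysosomal proteases Ctsb and Ctsd by 0.77 and 0.71. Ulk1, the kinase that starts autophagy, rose by 0.65 and lost the call without sham replicate 4 (0.58). Oxidative stress defence gave 6 higher and 4 lower of 39 (3 and 10). The glutathione peroxidases Gpx3 and Gpx1 rose by 1.16 ± 0.15 and 1.13 ± 0.12, and Nox4, a source of hydrogen peroxide, by 0.77, while Txn1, thioredoxin, fell by 1.61 and Cat, catalase, by 0.96. Cell cycle genes gave 2 higher and 1 lower of 41 (0 and 4): Ccnd2, a cyclin of entry into the cycle, rose by 0.89, Cdkn1b, an inhibitor of the cycle, by 0.60, and Plk2, a stress-responsive polo-like kinase, fell by 0.91. Cdkn1b lost its call without sham replicate 3 (0.55) or TAC replicate 1 (0.57) or 2 (0.58). Ribosome and translation genes gave 2 higher and 2 lower of 35 (0 and 6). Eef2, the elongation factor, was higher by 0.91 and Eif4e, which binds the cap, lower by 1.12. Called shares were 4.88% higher and 2.44% lower for cell cycle genes and 5.71% each way for ribosome genes. Over all genes they were 2.74% and 4.2%.

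Of 42 cardiac transcription factors 3 were called higher and 2 lower (0 and 6 under median centring). Sox9, a factor of matrix-producing cells, rose by 0.94, Meox1, a factor of activated fibroblasts, by 0.61 and Myocd, myocardin, the partner of serum response factor, by 0.60, each with overlap between the groups. Meox1 lost its call without sham replicate 1 or 3 (0.59 each) or TAC replicate 1 (0.51) or 4 (0.52). Myocd lost its call without sham replicate 2 (0.48) or 3 (0.50) or TAC replicate 3 (0.58), 5 (0.55) or 6 (0.57), and also with the deposited values. Wwtr1, the Hippo pathway coactivator TAZ, fell by 1.07 at its brightest probe. Its 2 dimmer probes had medians of 60.4 and 69.2 in the sham hearts and 75.7 and 91.7 in the TAC hearts. The Wwtr1 call was lost when its probes were averaged. Srf, serum response factor, fell by 0.60, which was not called without sham replicate 2 (-0.57) or 4 (-0.53) or TAC replicate 6 (-0.56). In the DNA methylation list 1 of 15 genes was called, Gadd45a, a DNA damage gene linked to demethylation, which rose by 0.69 and lost the call without sham replicate 4 (0.50); 0 were called higher and 1 lower under median centring. Dnmt3a, intact in these hearts, was near background and gave 0.15 ± 0.06.

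Of 17 circadian clock genes 3 were called higher and 2 lower. Arntl, the activator of the clock, went from 338, 253, 116 and 140 in the sham hearts to values from 52.8 to 71.2, with a median of 62.3, in the TAC hearts (-1.64 ± 0.23, adjusted p = 9.36e-06). Dbp, a clock output factor, was at 730, 1480, 3300 and 2470 and from 4230 to 5420, with a median of 4740 (1.46 ± 0.31), Ciart, a repressor of the clock, rose by 1.64, 1.57 and 1.15 at its 3 probes, and Per2, another repressor, by 0.79. Per2 lost its call without sham replicate 1 (0.69) or 2 (0.63). Nr1d2, a nuclear receptor of the clock, fell by 1.07. For Dbp the sham hearts ranged from 730 to 3300 and did not overlap with the TAC hearts, which kept to a narrower range. The sources used here do not give the time of day of tissue collection.

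The mean levels of the red blood cell, smooth muscle and atrial lists did not overlap between the groups, whereas those of the cardiomyocyte, fibroblast, endothelial, leukocyte, skeletal muscle, adipocyte and nerve lists did. Of 6 red blood cell genes, 4 were called higher and none lower, and their summed intensity was 16800 to 32200 in the sham hearts and 41200 to 50300 in the TAC hearts. Hbb-bs, a beta globin, was at 12700, 15400, 15100 and 9290 in the sham hearts and ran from 21800 to 26300, with a median of 25300, in the TAC hearts (0.95 ± 0.14, adjusted p = 1.46e-05). Alas2, the heme enzyme of red cell precursors, rose by 1.15 and Slc4a1, the red cell anion exchanger, by 0.91. The part of blood in the other results was not tested. Smooth muscle and pericyte markers were called higher in 3 of 17 cases and lower in none (2 and 3 under median centring), with summed intensities of 15200 to 17500 in the sham and 18200 to 24300 in the TAC hearts. Myh11, smooth muscle myosin, rose by 1.32 ± 0.16 and Tagln, transgelin, by 0.73, whereas Acta2, smooth muscle actin, was not called (0.38 ± 0.23, adjusted p = 0.271). The median of the list minus that of all genes was 0.35, and -0.01 under median centring or with the deposited values.

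Fibroblast markers were called higher in 5 of 18 cases and lower in 2 (1 and 4 under median centring), with summed intensities of 10300 to 12700 in the sham and 10500 to 15600 in the TAC hearts. Mfap5, a microfibril protein of fibroblasts, and Lum, lumican, rose by 1.26 and 0.97, Dpt, dermatopontin, fell by 0.83, and Postn and Cthrc1 were near background. A second Lum probe did not rise, with a median of 398 in the sham and 365 in the TAC hearts. The part of fibroblast number in the matrix results was not tested. Endothelial markers were called lower in 1 of 20 cases (11 under median centring), Cldn5, a tight junction protein, which fell by 0.66 and lost the call without sham replicate 4 (-0.58) or TAC replicate 6 (-0.51). Their summed intensity was 23700 to 29200 in the sham and 18800 to 23200 in the TAC hearts, and Pecam1, an endothelial adhesion protein, was not called at its brightest probe (-0.12 ± 0.08) but was called lower, at -0.86, at a dimmer one. Leukocyte and macrophage markers gave 5 higher and 2 lower of 31 (3 and 5 under median centring), with summed intensities of 7180 to 10100 and 9720 to 14600, and Ptprc, the pan-leukocyte marker, was near background. Fcer1g, an Fc receptor chain, was at 46.2, 411, 208 and 41.5 in the sham hearts and H2-Ab1, a class II chain, at 54.3, 53, 453 and 543, so that each split the sham hearts into a low and a high pair. Fcer1g lost its call without sham replicate 1 (1.70 in place of 2.13), and H2-Ab1 gave 0.69 and 0.30 at its other probes, neither called. Lgals3, galectin, and Gpnmb, both of activated macrophages, rose from means of 231 and 74.8 to 492 and 139, while Lyz2, lysozyme, fell by 1.58 at its brightest probe and was called higher, at 0.83, at a dimmer one.

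Atrial markers were called higher in 2 of 13 cases, Nppa and Dkk3, and lower in 1, Stard10. The summed intensity, mostly that of Nppa, was 3720 to 8940 in the sham and 9740 to 33900 in the TAC hearts. Myl4, the atrial essential light chain, was at 134 to 166 in the sham hearts and at 176 to 313 in 5 TAC hearts and 894 in TAC replicate 4. Skeletal muscle isoforms were called higher in 2 of 18 cases, Acta1 and Mybpc2, and lower in none (1 and 1 under median centring), and their summed intensity of 17900 to 28400 in the sham and 33400 to 38100 in the TAC hearts was mostly that of Acta1 and of Eno3, an enolase also found in heart, which did not pass the test (0.07 ± 0.09, adjusted p = 0.644). Atp2a1 and Pvalb were at 56.1 to 66.4 and 48.3 to 124 in the TAC hearts, within or below the range of the other 3 sham hearts except for Pvalb in TAC replicate 6. Adipocyte and nerve markers were not called.

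Besides members of the lists and C4a and Nmrk2, given above, the genes with the largest rises were Angptl7, an angiopoietin-like secreted protein (2.41 ± 0.40), Svep1, a large matrix adhesion protein (1.86 ± 0.17), Serpinf1, pigment epithelium-derived factor (1.82 ± 0.18), Ptn, the heparin-binding growth factor pleiotrophin (1.81 ± 0.37), Slc13a4, a sulfate transporter (1.66 ± 0.31), Itgbl1, an integrin-like secreted protein (1.58 ± 0.19), and 3110040M04Rik (1.67 ± 0.35). Serpinf1 was at 808, 995, 859 and 887 in the sham hearts and ran from 1760 to 4590, with a median of 3210, in the TAC hearts, and Svep1 at 81.1, 90.5, 79.4 and 83.5 and from 181 to 419, with a median of 326. Besides members of the lists and ND4L, given above, the largest falls were of Neat1, a nuclear long noncoding RNA (-2.78 ± 0.24), Saraf, an inhibitor of store-operated calcium entry (-2.42 ± 0.23), Lgals4, a galectin (-2.29 ± 0.32), 2900060B14Rik (-2.15 ± 0.25) and Atp5md, a small subunit of ATP synthase (-2.18 ± 0.12). Neat1 went from 2950, 1900, 2170 and 2720 in the sham hearts to values from 207 to 642, with a median of 350, in the TAC hearts. The largest rises and falls were taken from called probes without overlap between the groups, so separation was a condition of being named. Saraf rested on 1 of 3 bright probes, the other two giving 0.42 and 0.45.

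The same contrast in DKO hearts, other mice on the same 2 sets of arrays, called 760 genes higher (3.99%) and 986 lower (5.17%). Of the 6 TAC DKO arrays, replicates 1 to 4 lay at 34.2 to 41.6 on the first principal component and replicates 5 and 6 at 18.2 and 15.9, a split that no label names. Among the TAC CTL arrays only replicates 1 and 2, at 36.9 and 27.2, lay above this lower range and its neighbours. The genotypes were thus spread unevenly over this component, and its part in the DKO counts and in the test between genotypes was not tested. Of the 523 genes called higher in CTL hearts, 413 (79%) were called higher in DKO hearts, which is 54.3% of the DKO calls. Of the 800 called lower, 730 (91.2%) were called lower, which is 74% of the DKO calls. Of all 1323 genes called in CTL hearts, 1319 had the same sign in DKO hearts and none was called in the opposite direction. The mice were different, but the sets of arrays were the same, so the part of the sets in this likeness cannot be told apart from that of surgery. The log2 changes in CTL and DKO hearts were 3.20 and 2.96 for Comp, 1.56 and 1.17 for Col1a1, 2.26 and 1.80 for Acta1 and 2.24 and 1.32 for Nppa. The stress and fetal list had a median of 0.24 in CTL and -0.02 in DKO hearts, with 7 genes called higher and 3 lower in the latter; the difference of the medians was not tested. Ankrd1 gave 0.61 in CTL and -0.02 in DKO hearts, a difference of -0.63 ± 0.18 that did not pass the test (adjusted p = 0.939). The test of the difference between genotypes called 1 of 19057 genes (0.00525%), at an adjusted p under 0.05, and 2132 of 45281 probes (4.71%) at an unadjusted p under 0.05. It was Nap1l5, an imprinted nucleosome assembly gene, which was near background in both CTL groups (means of 52.2 and 49.1) and had means of 199 in sham and 84.2 in TAC DKO hearts (difference of the log2 changes -1.17 ± 0.17, adjusted p = 0.0222). It is named because it was the only call, and it was lost without sham CTL replicate 1, sham CTL replicate 4 or TAC CTL replicate 3 and with TAC CTL replicates 3 to 6 alone, where 0 genes were called.

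**Figure D5:**
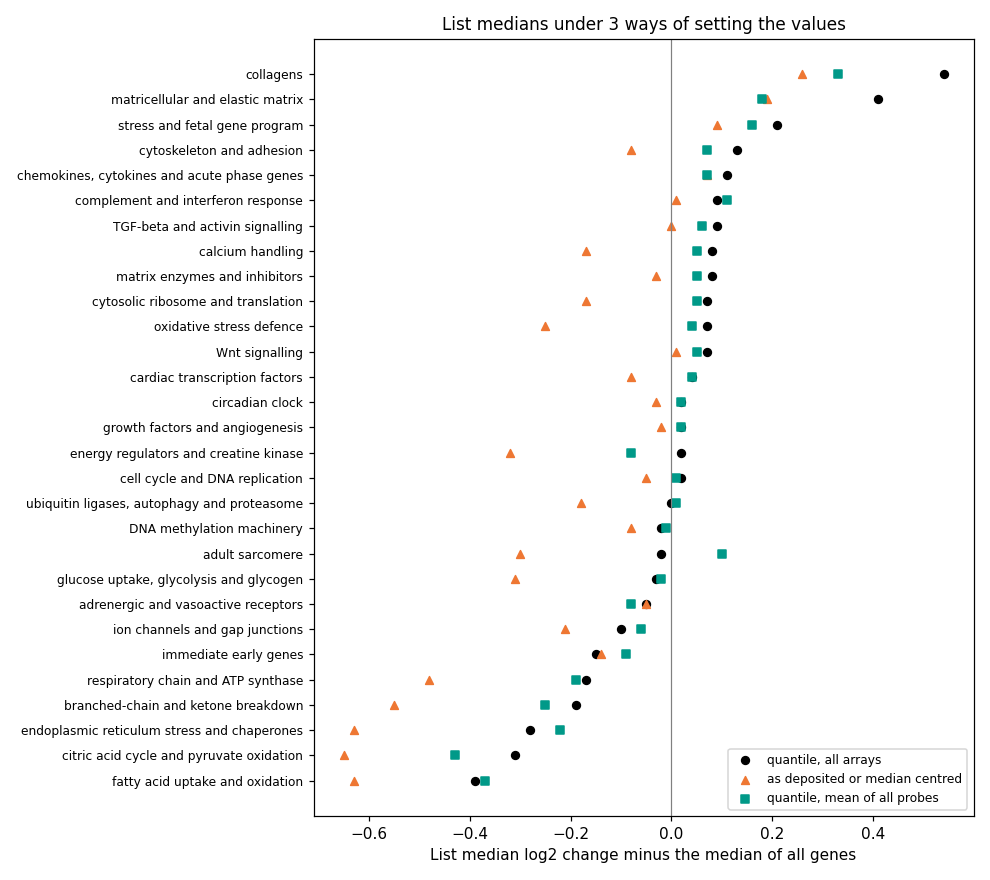
Points are the median log2 change of each list minus the median of all genes, for the main values (black circles, quantile normalization, brightest probe), for the deposited or median-centred values (orange triangles) and for the mean of all probes of a gene (green squares). Collagens, matricellular genes and the stress program lie above 0 and fatty acid, citric acid cycle, respiratory chain, branched-chain and chaperone genes below 0 under all 3, while lists near 0, such as the cytoskeleton, calcium handling and oxidative stress lists, change sign under the deposited or median-centred values.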

How the data were processed

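Ventricles of 20 mice were profiled on Illumina arrays, 1 array per mouse; groups came from the sample titles. The deposited values are linear intensities of 45281 probes, made by the authors with GenomeStudio (version 2010.3 in the submitters' processing notes), quantile normalized in 2 sets (8 sham and 12 TAC arrays), with no detection p-values. Here they were put on the log2 scale with no added constant and quantile normalized over all 20 arrays. limma 3.58.1 (R 4.3.3) fitted 1 mean per group, and contrasts were adjusted by Benjamini-Hochberg over all probes. A call required an adjusted p under 0.05 and a fold over 1.5. Since the deposited samples carry no other label, p-values measure the spread between these hearts. Of the probes, 34885 name 1 gene in the platform annotation, 18 several and 10378 none. Symbols were updated through RefSeq (34807 probes), and the brightest probe over all arrays stood for each of 19057 genes. A group mean at or below 53.9, the median intensity, was called near background.

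Of 1240 genes in 39 lists, 1126 had a probe. The members and lists were chosen with earlier results of these data known. Named genes were the 20 largest rises and 15 largest falls among probes without overlap between groups, up to 4 called genes per list and direction, and index genes of the pressure response; other genes were named after their values were seen. The number of arrays limits the precision. Alternatives were other scalings, a constant of 16 added before log2, removal of dim probes, array weights, a variance trend, a replicate block, a fold over 2, the mean of a gene's probes and leaving out each heart. The mean of a gene's brighter probes and TAC CTL replicates 3 to 6 alone were chosen after seeing the data.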

Additional observations from a re-analysis of the deposited data

Results flagged for a closer look

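In 456 groups of 4 or 6 values, 26 held a heart separated from the others by most of the group's range; chance alone marks about 1 in 20 groups. Sham CTL replicate 4 was the heart in 9 of them. It was highest for Atp5md (754, others 465 to 479), Ndufb2 (2660, others 1650 to 1740), Txn1 (520, others 324 to 341), Stard10 (249, others 204 to 207) and the mean of the endothelial markers (0.26 on the log2 scale, others -0.11 to -0.06). It was lowest for Dld (784, others 1200 to 1260), Gnas (534, others 947 to 1030), Klf15 (81.5, others 93.9 to 96.1) and Slc2a4 (316, others 648 to 704).

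Sham CTL replicate 2 was highest for the mean of the skeletal muscle isoforms (1.18, others -0.47 to -0.32), for Dnajb4 (441, others 333 to 344) and for Acvr2a (99.1, others 77.3 to 80.6). Sham CTL replicate 1 was highest for Angptl7 (79.1, others 60.2 to 61.6) and lowest for Saraf (2700, others 5820 to 6740). Sham CTL replicate 3 was lowest for Zyx (1670, others 1840 to 1880) and for the mean of the adipocyte markers (-0.06, others 0.02 to 0.03).

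Among the TAC CTL hearts, replicate 6 was lowest for Nppa (8610, others 24000 to 31800), Ccn2 (3930, others 5740 to 7000) and Sfrp1 (202, others 410 to 602). Replicate 1 was lowest for Ankrd1 (10800, others 13800 to 15800), Mccc1 (96, others 137 to 162), Ppara (45.7, others 58.6 to 66.8) and the mean of the chaperone list (-0.48, others -0.35 to -0.30). Replicate 4 was highest for 3110040M04Rik (635, others 316 to 379) and for the mean of the leukocyte markers (0.55, others 0.09 to 0.25). Replicate 5 was lowest for Slc4a1 (102, others 130 to 150).

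The test of the response to TAC between genotypes called 1 gene, Nap1l5, whose log2 change in DKO hearts minus that in CTL hearts was -1.17. No gene was called when sham CTL replicate 1, sham CTL replicate 4 or TAC CTL replicate 3 was left out, or with TAC CTL replicates 3 to 6 alone.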

How the results depend on the processing

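The 2 separately normalized sets limit every level here, because a scaling cannot be told apart from surgery. Median centring called 186 probes higher and 3848 lower, 107 genes higher and 2224 lower, and 77 and 1923 genes in both genotypes. Under median centring and with the deposited values the medians of the cytoskeleton list (-0.08) and of the smooth muscle markers (-0.01) fell below that of all genes. A fold over 2 called 141 probes higher and 522 lower, 88 genes higher and 266 lower, and 67 and 248 in both genotypes. The mean of all probes of a gene called 267 genes higher and 515 lower, and 209 and 464 in both genotypes. The mean of the brighter probes, chosen after seeing the data, called 272 genes higher in both genotypes. Apart from the stricter fold, which is stricter by construction, the cause was not tested.

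Leaving out each heart gave 709 to 885 probes higher and 1435 to 1606 lower, 453 to 597 genes higher and 750 to 830 lower, and 365 to 448 and 684 to 746 in both genotypes. The test of the difference between genotypes called 0 to 2 genes in these fits, 2 with a variance trend, a replicate block or the brighter probes, and 0 with TAC CTL replicates 3 to 6 alone. Of the 198 genes covered by the naming rule, 177 were called. Of these, 16 lost their call with the deposited values, 45 under median centring, 83 at a fold over 2, 50 with the mean of all probes and 3 to 13 without single hearts. The call was kept under every setting other than a fold over 2 by 95 of the 177. None reversed.

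With the replicate number as a replicate block, 656 genes were called higher and 919 lower. The numbers are only names: deviations of same-numbered sham and TAC hearts correlated at -0.035, 0.026, -0.032 and -0.066, and no sham heart correlated best with its own number.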
